A study of Mus musculus with 8 samples.

Results

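Immunity-related GTPases (IRGs) are interferon-inducible proteins of mouse cells that act against microbes living inside vacuoles. The 7 IRG genes Irgm1, Irgm2, Igtp, Iigp1, Tgtp1, Tgtp2 and Ifi47 were followed here among the 49315 genes counted by RNA-Seq in bone marrow-derived macrophages (BMDMs). They were taken as a list of symbols matched to Ensembl genes, and the family was chosen by its known fold changes between MAARS gapmeR and control gapmeR in these same libraries, so those fold changes are a description and carry no test. All 7 were found in the count table and all 7 had enough counts to enter the fit.

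The BMDMs were grown from the marrow of C57BL/6 mice in 10 ng/ml mMCSF and were transfected by lipofection with a gapmeR, an antisense oligonucleotide that leads RNase H to its target RNA. The control group was 4 libraries of cells given negative control gapmeR (replicates 2, 5, 6 and 7), and the knockdown group was 4 libraries of cells given gapmeR against the long non-coding RNA MAARS (replicates 9, 11, 13 and 15). The labels give the gapmeR as 25 nM, and no untransfected cells and no interferon-treated cells were among the libraries, so both groups share the transfection. The labels do not say whether the libraries of a group came from separate mice or cultures, so the spread between them may be partly technical.

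IRG genes are switched on by interferons through STAT and IRF transcription factors. The proteins are classed by the residue before the serine of their first nucleotide-binding motif (G1): GKS proteins carry a lysine there and coat the vacuoles of pathogens such as Toxoplasma gondii, while GMS proteins (Irgm1, Irgm2 and Igtp, also called Irgm3) carry a methionine, sit on the cell's own membranes and hold the GKS proteins inactive there. Iigp1 (Irga6), Tgtp1 and Tgtp2 (Irgb6) and Ifi47 (Irgd) are the GKS genes of the list.

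The G1 motif is shown because it divides the 7 genes into the classes by which the results are ordered. The reference coding sequences of GENCODE M21 (GRCm38) read as follows in 5′ to 3′ direction, with the codon of the methionine or lysine in capitals.
Irgm1: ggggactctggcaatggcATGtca
Irgm2: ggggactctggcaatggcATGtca
Igtp: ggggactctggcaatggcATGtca
Tgtp1: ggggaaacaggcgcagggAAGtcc
Tgtp2: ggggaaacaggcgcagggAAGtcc
Ifi47: gggcagtctgggactggcAAGtcc
The G1 bases were identical in the 3 GMS genes, which carried ATG, and identical in Tgtp1 and Tgtp2, which carried AAG like Ifi47 and Iigp1. Over the whole coding sequence the GMS genes were 69.4% to 74.6% identical to each other in aligned bases. Tgtp1 and Tgtp2 differed at 4 of 1245 aligned bases (99.7% identity), and every other pair of the 7 genes lay between 61.7% and 66.4%.

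The promoters are shown because 2 interferon motifs stand close together in most of them. The interferon-stimulated response element core (ISRE, letters GAAANNGAA, bound by IRF factors) and the gamma-activated site (GAS, letters TTCNNNGAA, a motif of interferon-gamma signalling) were searched on both strands in the 250 bases before the RefSeq start of transcription. The windows below hold bases -120 to -13 from that start, from RefSeq on GRCm38.p6, in the direction of the gene and with matching letters in capitals.
Irgm1: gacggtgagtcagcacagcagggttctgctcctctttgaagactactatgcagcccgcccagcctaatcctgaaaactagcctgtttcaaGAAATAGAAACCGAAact
Irgm2: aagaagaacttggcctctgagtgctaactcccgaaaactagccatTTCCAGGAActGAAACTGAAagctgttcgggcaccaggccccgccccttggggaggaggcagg
Igtp: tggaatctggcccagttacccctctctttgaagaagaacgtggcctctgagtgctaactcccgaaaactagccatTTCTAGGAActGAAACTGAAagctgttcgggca
Tgtp1: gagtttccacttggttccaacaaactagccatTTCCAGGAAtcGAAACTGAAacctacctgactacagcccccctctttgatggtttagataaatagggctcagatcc
Tgtp2: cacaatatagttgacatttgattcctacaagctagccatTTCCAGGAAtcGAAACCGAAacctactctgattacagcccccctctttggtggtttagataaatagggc
Ifi47: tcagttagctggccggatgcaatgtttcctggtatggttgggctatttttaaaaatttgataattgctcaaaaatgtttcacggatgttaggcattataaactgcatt
They lie at chr11:48871433-48871540 (minus strand), chr11:58214857-58214964 (plus), chr11:58199436-58199543 (plus), chr11:48992259-48992366 (minus), chr11:49064225-49064332 (minus) and chr11:49076467-49076574 (plus).

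In Irgm2, Igtp, Tgtp1 and Tgtp2 the GAS was followed after 2 bases by the ISRE core. The GAS began at -75 and the ISRE core at -64 in Irgm2, and at -45 and -34 in Igtp. In Tgtp1 they began at -88 and -77, and in Tgtp2 at -81 and -70. Irgm1 held 2 ISRE cores that overlapped each other, at -30 and -24, and no GAS, and neither set of letters was found in the 250 bases of Ifi47. Promoter letters of Iigp1 were not examined. The windows of Irgm1, Irgm2 and Tgtp1 lie inside the GENCODE spans of these genes. Starts other than the RefSeq start used for each gene were not searched. Of 32851 promoters of the same length, 7.13% held the ISRE core, 7.02% held the GAS and 0.752% held both. The spaced pair was looked for after the windows had been seen, and 7 promoters (0.0213%) held it in either orientation, 5 of them of IRG genes: the 4 named above and Gm12185. These genes are copies of each other in part, so their promoters are not independent, and a match of letters does not show that a factor was bound.

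**Figure D1:**
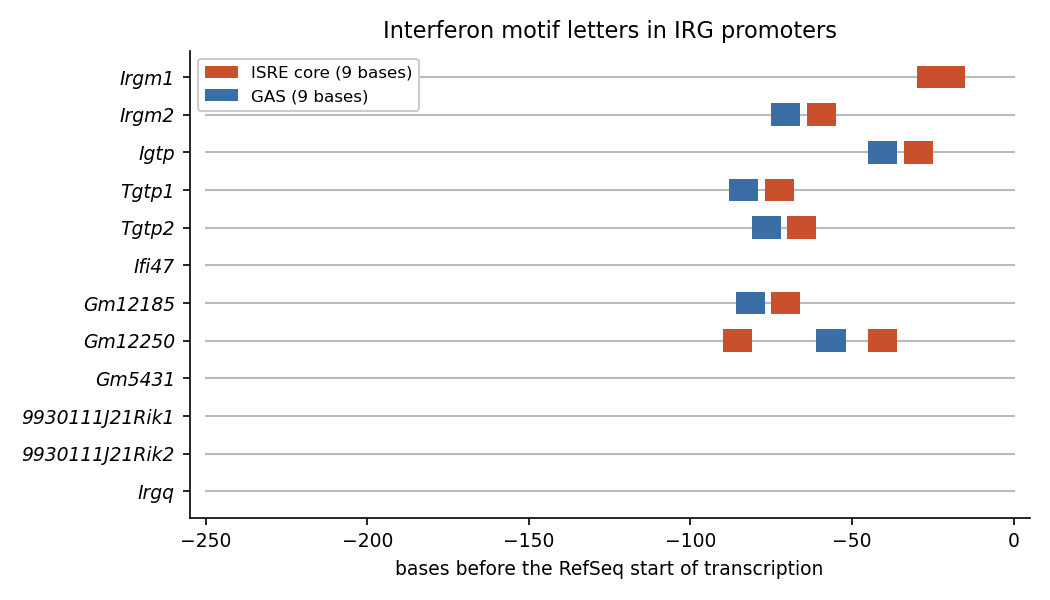
Each grey line is the 250 bases before the RefSeq start of an IRG gene, with the distance from the start in bases on the x axis, and boxes mark the letters of the ISRE core (red) and of the GAS (blue). The 2 boxes stand side by side with the GAS first in Irgm2, Igtp, Tgtp1, Tgtp2 and Gm12185, and Ifi47, Gm5431, 9930111J21Rik1, 9930111J21Rik2 and Irgq hold neither.

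On chromosome 11, 6 of the genes form 2 groups. Irgm1 (chr11:48861968-48871683, minus strand), Tgtp1 (chr11:48985327-48994172, minus), Tgtp2 (chr11:49057194-49064206, minus) and Ifi47 (chr11:49076587-49096974, plus) lie within 1 stretch. Igtp (chr11:58199556-58207591, plus) and Irgm2 (chr11:58199618-58222782, plus) overlap in the annotation and share 162 exonic bases, 8.01% of Igtp and 4.39% of Irgm2. Iigp1 lies alone among the 7 at chr18:60376027-60392634 (plus). Of all 100-base windows of the transcripts, 73.1% in Tgtp1 and 76.8% in Tgtp2 also occurred in another gene, nearly all in each other. The split of reads between these 2 genes is therefore uncertain, and their levels are too low if shared reads were not counted. The share of such windows was 5.16% in Igtp, 3.01% in Irgm2, 0.842% in Ifi47 and 0 in Irgm1 and Iigp1.

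The libraries held 19287279 to 24541205 counts. Values are given as CPM (counts scaled to library size) after TMM normalization unless said otherwise, and a gene was called at an edgeR quasi-likelihood adjusted p under 0.05 over the 13051 genes tested. MAARS itself (Gm14461) had 12.2, 15.1, 12.98 and 12.2 CPM in control replicates 2, 5, 6 and 7, and 7.71, 6.41, 7.31 and 5.85 CPM in MAARS gapmeR replicates 9, 11, 13 and 15. It was 48.1% lower with MAARS gapmeR (log2 fold change -0.95, SE 0.11, edgeR adjusted p = 5.8e-05), and the groups did not overlap. Of all genes tested, 45.4% were called, 24.0% lower and 21.3% higher. With upper-quartile scaling 2379 genes were called lower and 3622 higher, against 3137 and 2782 with TMM.

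All 7 IRG genes were lower with MAARS gapmeR, and in each of them the 4 MAARS gapmeR libraries lay below the 4 control libraries. This separation was also found for 22.8% of all genes tested, and since the list was drawn up with the contrast known, nothing is read from the count. The fall was from 2.76-fold in Irgm2 to 12.6-fold in Tgtp1, with a median log2 fold change of -2.23 against 0.01 over all genes tested. The 7 genes together took 0.0957% ± 0.0152 of all counts in control libraries and 0.0253% ± 0.00779 in MAARS gapmeR libraries (SD, n = 4 each). In bulk RNA, fewer cells expressing a gene and less RNA per cell cannot be told apart.

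**Figure D2:**
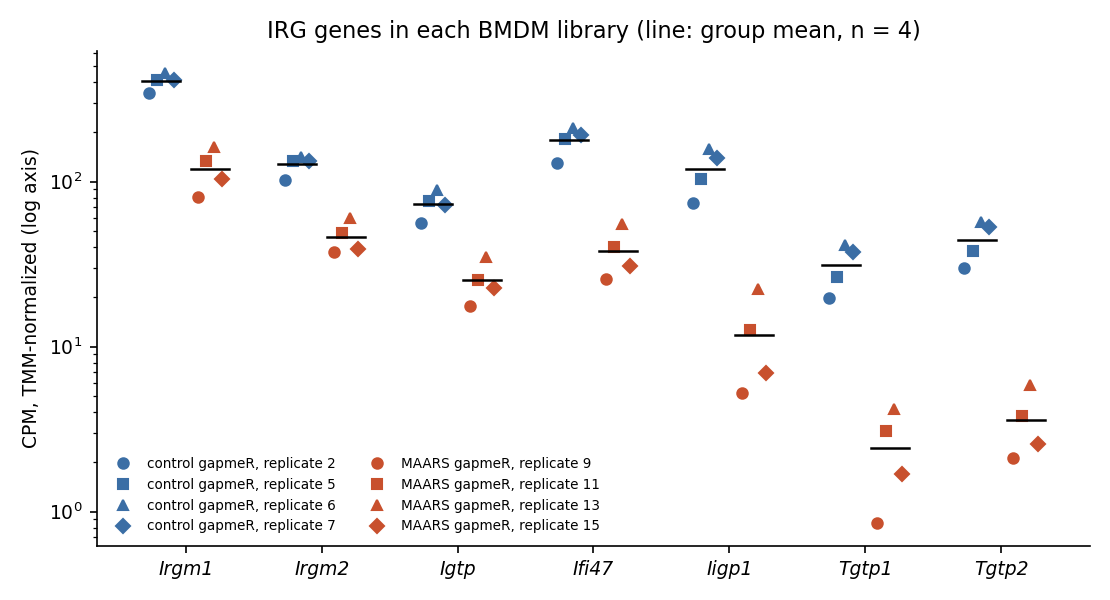
TMM-normalized CPM on a log axis for the 7 IRG genes in each of the 8 libraries; each point is 1 library, with a shape for each replicate, and black lines are group means (n = 4). In every gene the red MAARS gapmeR points lie below all blue control points, and the gap is widest for Iigp1, Tgtp1 and Tgtp2.

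Among the GMS genes, Irgm1, which is needed for control of mycobacteria and for autophagy in macrophages, was the most abundant by counts. It had 346, 413, 454 and 413 CPM in control replicates 2, 5, 6 and 7, and 81.2, 133, 163 and 104 CPM in MAARS gapmeR replicates 9, 11, 13 and 15. The highest MAARS gapmeR library, replicate 13, was still under the lowest control library, replicate 2. Irgm1 was 3.38-fold lower (log2 fold change -1.76, SE 0.17).

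Irgm2, a Golgi-associated GMS protein, had 102, 134, 142 and 133 CPM in control replicates 2, 5, 6 and 7. In MAARS gapmeR replicates 9, 11, 13 and 15 it had 37.3, 49.0, 59.9 and 39.0 CPM. Replicates 2 and 9 were again the lowest of their groups, and the fall of 2.76-fold (log2 fold change -1.46, SE 0.14) was the smallest of the 7. Igtp, a GMS protein of the endoplasmic reticulum and lipid droplets, had 56.2, 76.0, 89.1 and 72.3 CPM in the same control libraries and 17.6, 25.5, 35.2 and 22.8 CPM in the same MAARS gapmeR libraries. It was 2.91-fold lower (log2 fold change -1.54, SE 0.18), with no overlap between the groups.

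Among the GKS genes, Ifi47 fell least. It had 130, 182, 212 and 191 CPM in control replicates 2, 5, 6 and 7, and 25.7, 40.1, 55.3 and 31.0 CPM in MAARS gapmeR replicates 9, 11, 13 and 15. It was 4.70-fold lower (log2 fold change -2.23, SE 0.21), between the GMS genes and the other GKS genes.

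Iigp1, whose protein is the best studied of those that load onto the Toxoplasma vacuole, had 73.9, 103, 159 and 140 CPM in control replicates 2, 5, 6 and 7. It had 5.20, 12.6, 22.3 and 6.93 CPM in MAARS gapmeR replicates 9, 11, 13 and 15. The libraries of each group spread more widely than those of the GMS genes, and the groups did not overlap. Iigp1 was 10.1-fold lower (log2 fold change -3.34, SE 0.37).

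Tgtp1 and Tgtp2, the near-identical pair encoding T-cell-specific GTPase (Irgb6), a GKS protein that loads early onto vacuoles, showed the steepest falls of the 7. Tgtp1 had 19.7, 26.4, 41.1 and 37.7 CPM in control replicates 2, 5, 6 and 7, and 0.851, 3.06, 4.18 and 1.69 CPM in MAARS gapmeR replicates 9, 11, 13 and 15. Tgtp2 had 30.0, 37.9, 57.0 and 53.0 CPM in the same control libraries and 2.13, 3.78, 5.88 and 2.56 CPM in the same MAARS gapmeR libraries. In both, replicate 2 was the lowest control library and replicate 9 the lowest MAARS gapmeR library, and the groups did not overlap. They were 12.6-fold lower (log2 fold change -3.66, SE 0.35) and 12.4-fold lower (log2 fold change -3.63, SE 0.28), respectively. In Tgtp1 the lowest library rested on 18 counts. With the counts of the 2 genes summed, which removes the uncertain split but not any loss of shared reads, the log2 fold change was -3.64.

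Within the 7, the GMS genes thus lay between -1.76 and -1.46 on the log2 fold change scale, and the GKS genes between -3.66 and -2.23. The G1 class of other IRG genes was not read. Of these, Gm5431 (-1.57), 9930111J21Rik1 (-1.31) and 9930111J21Rik2 (-1.24) fell less steeply than Irgm1, and Irgq rose. Gm12250 (-2.20), Gm4951 (-2.28), F830016B08Rik (-2.61) and Gm12185 (-2.08) fell more steeply than Irgm1. Summed per kilobase of exon, the GMS genes were at 141 ± 19.0 CPM per kb in control libraries and 45.7 ± 12.4 in MAARS gapmeR libraries, and the GKS genes at 118 ± 27.4 and 19.4 ± 7.59 (SD, n = 4 each). The GMS genes made up 58.4%, 56.3%, 52.5% and 52.2% of the summed level of the 7 in control replicates 2, 5, 6 and 7. They made up 72.8%, 70.3%, 67.6% and 72.4% in MAARS gapmeR replicates 9, 11, 13 and 15. The shares of the groups did not overlap, and within each group the library with the lowest summed level, replicate 2 or replicate 9, had the highest GMS share. The difference in share between the groups follows from the unequal fold changes of genes chosen by this contrast, so it is a description. The GKS sum also depends on how reads shared by Tgtp1 and Tgtp2 were counted, which is not given.

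**Figure D3:**
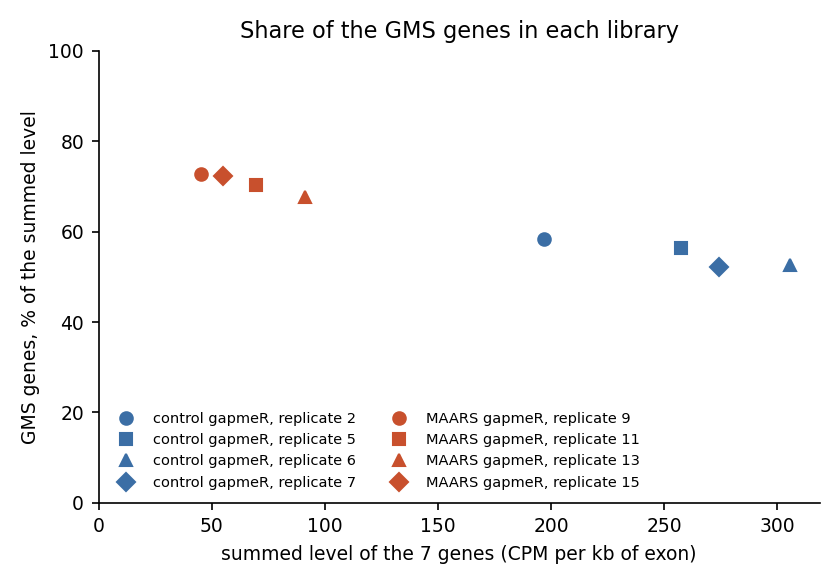
Each point is 1 library, with the summed level of the 7 IRG genes in CPM per kb of exon on the x axis and the percentage of it from the GMS genes Irgm1, Irgm2 and Igtp on the y axis. Control libraries lie at 52.2% to 58.4% and MAARS gapmeR libraries at 67.6% to 72.8%.

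The control libraries are part of the contrast by which the genes were chosen, so the levels in them are given as a description. Per kilobase of union exon length, Ifi47 and Irgm1 stood highest with 72.4 ± 14.0 and 70.0 ± 7.71 CPM per kb, and their libraries overlapped. Igtp and Irgm2 followed with 36.3 ± 6.70 and 34.6 ± 4.75, overlapping each other and separated from both neighbours in the order. Iigp1 (20.4 ± 6.48), Tgtp2 (15.1 ± 4.32) and Tgtp1 (9.74 ± 3.10) came last with overlapping ranges, although Iigp1 was above Tgtp2, and Tgtp2 above Tgtp1, in 4 of 4 libraries (SD, n = 4 throughout). How reads shared by Tgtp1 and Tgtp2 were counted is not given, so the levels of these genes and their places in the order are uncertain. With the length of the longest transcript in place of union exons, Iigp1 rose to 38.1 CPM per kb, into the range of Igtp and Irgm2. Irgm1 then stood at 106 and Ifi47 at 101 CPM per kb. In MAARS gapmeR libraries Irgm1 was first with 20.7 ± 6.08 CPM per kb and Ifi47 was second with 15.4 ± 5.24.

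The 7 genes varied more between libraries of a group than most genes did. The coefficient of variation of CPM in control libraries was 11.02% in Irgm1 to 31.8% in Tgtp1, against a median of 8.29% over all genes tested. In MAARS gapmeR libraries it was 22.5% in Irgm2 to 65.6% in Iigp1, against a median of 7.65%. The order of the libraries was shared: in MAARS gapmeR libraries all 7 genes ran from replicate 13 through 11 and 15 down to 9, and in control libraries all 7 were highest in replicate 6 and lowest in replicate 2. After each group's mean was removed, the 21 pairs of genes correlated over the 8 libraries with Pearson's r of 0.91 to 0.99. The genes share the libraries and their scaling, and this is given as a description.

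**Figure D4:**
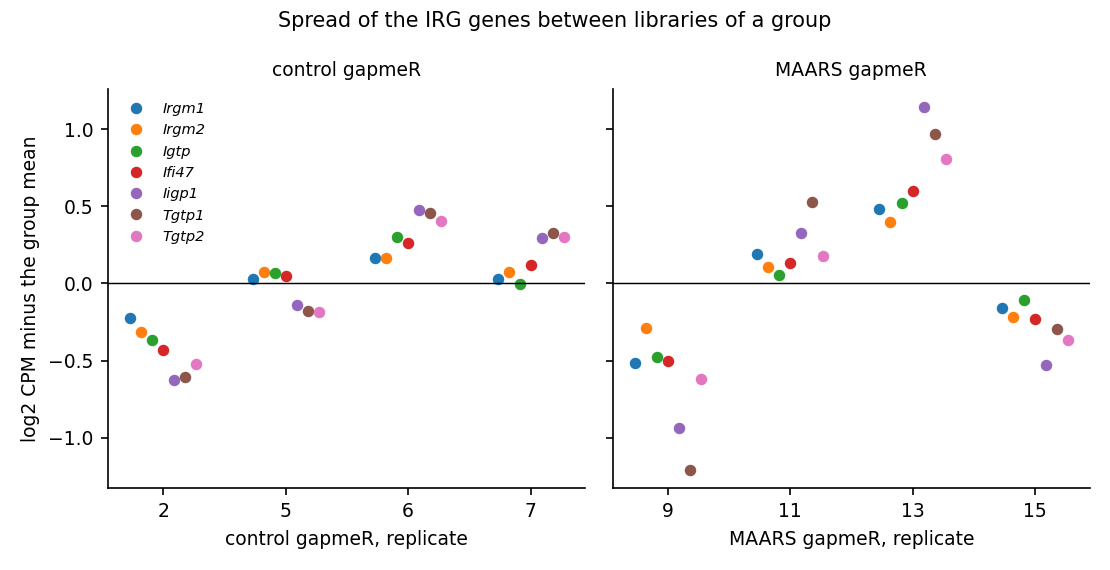
The log2 CPM of each of the 7 IRG genes minus its mean over the 4 libraries of the group (y axis) is plotted for each replicate (x axis), with control gapmeR on the left and MAARS gapmeR on the right. All 7 genes lie below 0 in control replicate 2 and MAARS gapmeR replicates 9 and 15, and above 0 in control replicate 6 and MAARS gapmeR replicates 11 and 13.

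Averaged over the 7 genes, the deviation from the group mean was -0.65 on the log2 scale in MAARS gapmeR replicate 9 and 0.70 in replicate 13. The level of MAARS in these 2 libraries was 7.71 and 7.31 CPM, the highest of the group. Replicates 11 and 15 deviated by 0.22 and -0.27, with 6.41 and 5.85 CPM of MAARS. In control libraries the deviation was -0.44 in replicate 2 and 0.32 in replicate 6, with 12.2 and 12.98 CPM of MAARS. It was -0.04 in replicate 5 and 0.16 in replicate 7, with 15.1 and 12.2 CPM of MAARS. A relation between the 2 levels was not tested.

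The 5 genes outside the family whose levels within groups were most like the mean of the 7, of 13036 compared, were Stat2 (Pearson's r 0.997, a transcription factor of type I interferon signalling), Ifi209 (0.992), Ly6e (0.990), Cmpk2 (0.990) and Ddx60 (0.990). Spearman's rho over the same 8 libraries was 1 for 21 genes, among them 4 of these 5. The fold changes of the 5 genes ran from -2.88 in Cmpk2 to -1.52 in Stat2 on the log2 scale. With 8 libraries and 156 genes above an r of 0.9, the order among such genes is loose.

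Further genes of the IRG family were counted as well. Of 13 further family genes listed, 11 were in the count table and 8 had enough counts to be tested. Of these, 7 were called lower and 1 was called higher, beside 24.0% and 21.3% of all genes tested. The further genes were listed with earlier results of these data known. Their calls and adjusted p, that of Irgq included, are therefore a description. Gm12250 (Irgb10), which helps to break bacterial membranes open, fell from 48.5 ± 7.75 to 10.5 ± 3.29 CPM (log2 fold change -2.20, SE 0.19, edgeR adjusted p = 7.9e-06). GENCODE M21 annotates Gm12250 as a processed pseudogene. Gm5431, the most abundant of the further genes by counts, fell from 174 ± 20.5 to 58.4 ± 13.5 CPM (log2 fold change -1.57, SE 0.14, edgeR adjusted p = 1e-05). On chromosome 18, Gm4951 (-2.28, SE 0.28) and F830016B08Rik (-2.61, SE 0.27) were called lower on the log2 fold change scale, less steeply than Iigp1 beside them. On chromosome 11, 9930111J21Rik1 (-1.31, SE 0.16), 9930111J21Rik2 (-1.24, SE 0.14) and Gm12185 (-2.08, SE 0.24) were called lower on the same scale. Gm12185 shares 223 exonic bases with Tgtp1, which are 3.99% of Gm12185.

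Irgq, a distant member of the family on chromosome 7, was the exception. It had 38.3, 45.1, 41.3 and 38.3 CPM in control replicates 2, 5, 6 and 7, and 51.6, 52.6, 50.5 and 46.6 CPM in MAARS gapmeR replicates 9, 11, 13 and 15. It rose by 0.30 on the log2 scale (SE 0.06, edgeR adjusted p = 0.0028) with no overlap between groups. Of the family genes with too few counts to be tested, Gm4841 had 89 counts in all 8 libraries together, Gm12187 had 10 and Irgc1 had 8.

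**Figure D5:**
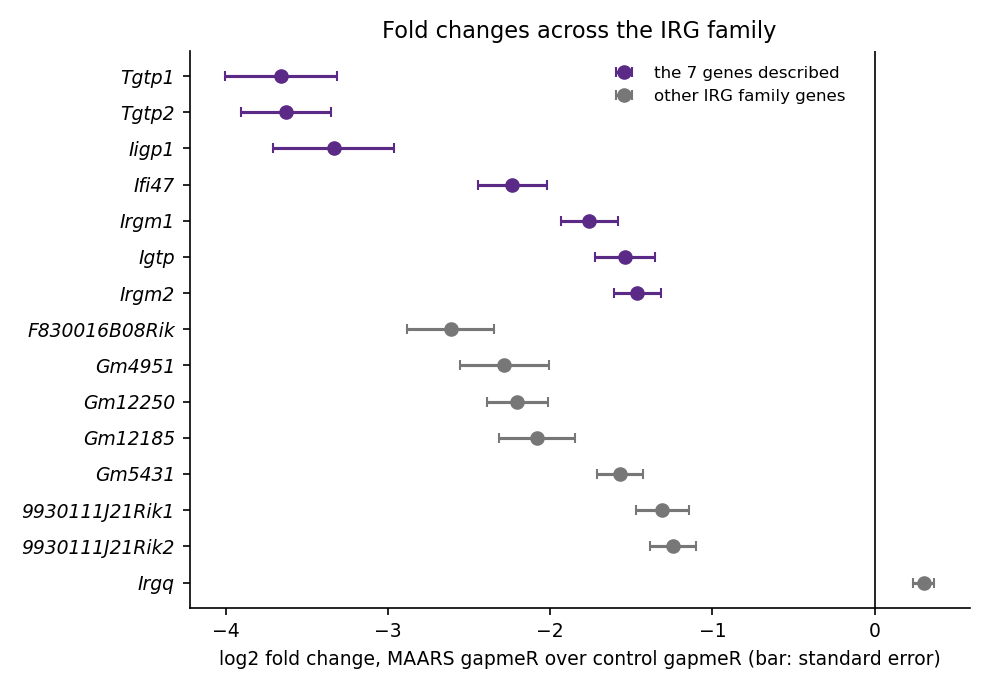
The log2 fold change of MAARS gapmeR over control gapmeR (x axis) with its standard error (bars) is plotted for the 7 genes described (purple) and the 8 other IRG family genes tested (grey). Tgtp1, Tgtp2 and Iigp1 lie farthest left, beyond -3, and Irgq is the 1 gene right of 0, at 0.30.

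Genes beside the IRG genes on the chromosome did not move alike. Next to the stretch from Irgm1 to Ifi47, Trim7 was called higher (log2 fold change 0.59, SE 0.15, edgeR adjusted p = 0.0093), and Zfp62 on the other side was not called (-0.02, SE 0.05, edgeR adjusted p = 0.71). Next to Igtp and Irgm2, Mrpl22 was called lower (-0.29, SE 0.08, edgeR adjusted p = 0.0099) and Zfp692 was not called (0.03, SE 0.19, edgeR adjusted p = 0.90). The nearest tested genes around Iigp1, apart from the IRG genes listed, were Gm5970 at 153969 bases and BC023105 at 49131 bases. Gm5970 lies inside the span of the IRG gene Gm4951, with F830016B08Rik and Gm4841 between it and Iigp1. Whether Gm5970 and BC023105 belong to the IRG family was not examined. Both Gm5970 (-2.13, SE 0.44, edgeR adjusted p = 0.0024) and BC023105 (-5.17, SE 0.56, edgeR adjusted p = 3.3e-05) were called lower, at 1.32 and 3.76 CPM in control libraries. Within the first stretch, Psme2b, a copy of an interferon-inducible proteasome activator gene, was called lower (-1.16, SE 0.12, edgeR adjusted p = 2.7e-05). Olfr56 was also called lower (-2.67, SE 0.31, edgeR adjusted p = 5.5e-05), and it shares 111 exonic bases with Ifi47 on the same strand, 4.49% of Ifi47, so reads of the one may be counted for the other.

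Interferon-inducible GTPases of other families were lower too. All 18 tested of 19 listed (guanylate-binding proteins, MX proteins and very large inducible GTPases) were called lower, beside 24.0% of all genes, with a median log2 fold change of -2.65. The 3 with the smallest p were Mx2, Gbp6 and Gbp8, with log2 fold changes of -2.64 (SE 0.18), -3.65 (SE 0.26) and -2.67 (SE 0.19). Mx2 and some other genes of the list are annotated as pseudogenes in GENCODE M21. This list, like the others, was written with earlier results of these data known.

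Of the genes that carry or restrain the interferon signal, 16 of 18 listed were tested, 10 were called lower, 1 was called higher and 5 were not called, beside 24.0% and 21.3% of all genes called lower and higher. The median log2 fold change of the 16 was -0.22. Ifnar1, a chain of the type I receptor, rose by 0.29 on the log2 scale (SE 0.05, edgeR adjusted p = 0.00065). Stat2 (-1.52, SE 0.14) and Usp18 (-2.32, SE 0.24), which are themselves induced by interferon, were called lower on the log2 fold change scale, and the value of Stat2 lay within the range of the GMS genes. Ifng and Ifnb1, the only interferon genes listed, were hardly counted, with 1 count and 5 counts, respectively, over all 8 libraries.

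The proteins that attach ATG8 family members to membranes are needed for GKS proteins to load onto vacuoles. Of the 11 genes listed for them, all tested, 3 were called lower, 5 were called higher and 3 were not called, with a median log2 fold change of 0.10. The background was 24.0% of all genes called lower, close to the share of this list, and 21.3% called higher. The conjugating enzyme genes moved in both directions, with Atg3 at -0.29 (SE 0.04) and Atg7 at 0.41 (SE 0.05). The ATG8 genes Gabarapl1 (0.43, SE 0.06), Gabarapl2 (0.18, SE 0.06), Map1lc3a (0.25, SE 0.08) and Map1lc3b (0.39, SE 0.07) rose on the log2 fold change scale. All of these changes were smaller than that of any of the 7 IRG genes.

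The libraries carried the macrophage markers at a summed 13836 to 17118 CPM in control and 17011 to 20241 CPM in MAARS gapmeR libraries. Lyz2 made up most of these sums, at 9402 ± 1240 CPM in control and 13170 ± 1172 CPM in MAARS gapmeR libraries. Of the 8 markers, Csf1r, Itgam, Lyz2, Mertk and Cd14 were called higher, Fcgr1 (log2 fold change -2.09, SE 0.17) and Cd68 (-0.34, SE 0.05) were called lower, and Adgre1 was not called. Of the 3 NK cell markers, Ncr1 and Klrb1c were at or near 0 and Klrk1 fell from 19.3 ± 6.14 to 1.18 ± 0.64 CPM (log2 fold change -4.01, SE 0.33, edgeR adjusted p = 6.5e-06), so the summed level was 12.9 to 25.1 CPM in control and 0.520 to 1.83 CPM in MAARS gapmeR libraries. Of the 4 T cell markers, Cd3e, Cd3d and Cd8a were near 0 and Cd4 fell from 74.0 ± 8.59 to 46.2 ± 4.72 CPM (log2 fold change -0.68, SE 0.09), giving sums of 65.9 to 85.5 and 40.6 to 51.4 CPM. Sums of the neutrophil, dendritic cell, fibroblast, endothelial, B cell and erythroid lists overlapped between groups or lay under 1 CPM, and none of their genes was called. The fibroblast list was the largest of these, at a summed 438 to 1006 CPM in control and 691 to 1193 CPM in MAARS gapmeR libraries. The part of these markers in the levels of the IRG genes was not tested.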

How the data were processed

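RNA-Seq of 8 BMDM libraries (4 control gapmeR, 4 MAARS gapmeR) was used, grouped by the labels. Per the submitters' processing notes and the methods, the authors trimmed reads (Trimmomatic 0.36), aligned them with STAR 2.5.2b to mm10 with Ensembl transcripts and counted them with featureCounts (Subread 1.5.2). The deposited table holds raw, unnormalized counts of 49315 genes. Strand and multi-mapping settings are not given in the sources used here, which bears on Tgtp1, Tgtp2 and overlapping genes.

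Genes passing filterByExpr (minimum count 10, minimum total 15) were fitted in edgeR 4.0.16 (R 4.3.3) with TMM factors and the quasi-likelihood test; p was adjusted by Benjamini-Hochberg over 13051 genes; the standard error is the log2 fold change divided by the root of F. The 19287279 to 24541205 counts per library set the precision. Within-group values are log2 CPM with a prior count of 2. Replicates differed by a chi-square of 4.24 to 15.1 per gene, so no 2 libraries agreed within sampling noise. Positions and lengths came from GENCODE M21 (99.47% of genes found). A planned comparison of protein sequences was made on coding bases (Biopython 1.88). Alternatives were RLE and upper-quartile factors, DESeq2 1.42.0, limma-voom (limma 3.58.1), other filters and thresholds, leaving out each library, and others named in the closing section.

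The 7 genes and all lists were chosen with earlier results of these data known. Named were the 7 genes, every other IRG gene with a count, MAARS, the 3 genes of each list with the smallest p and those called in the opposite direction, the 5 most alike genes, and neighbouring or overlapping genes; 1 gene that this rule names is not reported here. The fits were tested on simulated data.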

Additional observations from a re-analysis of the deposited data

Results flagged for a closer look

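In 116 groups of 4 libraries (the 2 groups of each of 58 named genes), the highest or lowest library was set apart from the other 3 by Dixon's gap test, which flags about 1 in 20 groups by chance. None of the 7 IRG genes and not MAARS had such a library; 5 groups did. In MAARS gapmeR replicate 15, 9930111J21Rik1 was at 12.9 CPM against 22.5 to 23.1 in the other 3 libraries, and Gm12185 was at 0.607 CPM against 1.04 to 1.10. Both are IRG genes of chromosome 11, and in the 7 genes described the lowest MAARS gapmeR library was replicate 9. Gm5431, 9930111J21Rik2 and Irgq, which were not flagged, were also lowest in replicate 15. Gm12250, Gm4951 and F830016B08Rik were lowest in replicate 9. The other 3 flagged groups were Gabarapl2 in control replicate 5, at 52.4 CPM against 45.2 to 45.7, Cd14 in MAARS gapmeR replicate 15, at 187 CPM against 158 to 161, and the dendritic cell gene Zbtb46 in control replicate 6, at 1.08 CPM against 0.410 to 0.509.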

How the results depend on the processing

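All 7 genes were called lower under each of the 14 alternatives run (other scaling, tools and filters, and each library left out). Across these alternatives 2379 to 3148 of all genes tested were called lower. The 7 were chosen with this contrast known, so their calls are a description. None of 100 recomputed fold changes of the 7 genes moved by more than the spread between replicates or changed sign. The recomputed values ranged from -4.02 to -1.38 on the log2 scale. The median of the 7 ranged from -2.47 to -2.09. Between 7 and 8 of the other IRG genes, 18 other GTPases, 8 to 13 signalling genes and 3 ATG8 conjugation genes were called lower, and MAARS had log2 fold changes of -1.01 to -0.88. Over all genes, the 5919 calls became 701 when a log2 change of 1 or more in either direction was also required, and 287 when 1.5 was. Of the 5 genes most like the IRG genes by Pearson's r, 0 were among the first 5 with control libraries alone and 1 with MAARS gapmeR libraries alone; by Spearman's rho 21 genes tied at 1, so rho could not rank them. Levels per kilobase of Irgm1, Ifi47 and Iigp1 moved with the length used. No paired analysis was possible because the groups share no replicate numbers. Among the 7 genes depth limits Tgtp1 most, with 18 counts in 1 library.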
